A study of Mus musculus with 8 samples.

Results

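Lysosome and autophagy genes were examined in islets that overexpress uncoupling protein 2 (UCP2), an inner mitochondrial membrane protein. The group is a list of 36 genes, taken from the 26894 genes that have a symbol on the array, and each gene is represented by the probe with the highest mean over the 8 deposited normalized columns. RNA came from islets of 4 βUCP2Tg and 4 wild-type (WT) samples, all male, hybridised with Cy3 to 1-colour Agilent mouse arrays after the islets had spent 8 hours in medium with 200 mg/dL glucose. βUCP2Tg mice carry a mouse *Ucp2* cDNA behind a rat insulin promoter, so the transgene is targeted to β-cells, and had been backcrossed to C57BL/6J. WT mice were their littermates without the transgene, and both were adult. Handpicked islets also hold other endocrine, endothelial and immune cells, which the promoter does not target but which contribute RNA. It was not settled here whether a sample is a single mouse or a pool, so SD and p refer to samples and may in part be technical.

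Lysosomes are acidic organelles in which hydrolases break down proteins, sugars, sulfated glycans and lipids that arrive by endocytosis or autophagy. In autophagy, a membrane closes around cytoplasm, protein aggregates or damaged mitochondria and then fuses with a lysosome. β-cells use this route to clear mitochondria and excess insulin granules, and many of the genes are activated by the transcription factor EB (TFEB), which binds a short palindromic promoter element.

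Values below are scaled log2 signals: the log2 intensity of a probe minus the 75th percentile of its array, so that 0 is the signal of a fairly bright probe and negative values are dimmer. They compare arrays for the same probe, not one gene with another. A difference is always βUCP2Tg minus WT on this log2 scale. A gene was called when limma gave an adjusted p under 0.05, over all 35363 tested probes, and a fold change over 1.5, which is 0.58 on the log2 scale. The groups of a gene are described as apart when all 4 βUCP2Tg values lie on the same side of all 4 WT values.

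The label check and the arrays as a whole come first. The brighter of 2 *Ucp2* probes had values between 6.99 and 7.71 on the βUCP2Tg arrays and between 0.92 and 1.46 on the WT arrays. The other had 0.78 to 0.90 against 0.22 to 0.73, apart and not called (adjusted p = 0.0987). All 10 β-cell marker genes were well above background on all 8 arrays. Between 33191 and 36320 of 56605 probes were well above background per array. Each row of the slide carried arrays of a single genotype, and slide row and genotype cannot be told apart. Before scaling the 75th percentile was 8.996 to 9.16 on the βUCP2Tg arrays against 8.78 to 8.89 on the WT arrays. WT replicates 1 and 3 each had 2 quality metrics of the scanner software out of range. Summed over 10 acinar genes, the linear scaled signal was 9.63, 31.0, 13.3 and 191 in βUCP2Tg replicates 1 to 4 and 117, 236, 327 and 14.9 in WT replicates 1 to 4, so βUCP2Tg replicate 4 and WT replicate 4 stood apart from the rest of their groups.

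The promoters of many of these genes hold the core of the element that TFEB binds, CACGTG, which reads the same on both strands. RefSeq promoter windows on GRCm38.p6, from 250 bases before to 50 bases after a gene's start, were matched by symbol for 32 of the 36 genes; *Asah1*, *Becn1*, *Ctsb* and *Npc1* had no entry. CACGTG was found in 13 of the 32 genes (40.6%), against 8.09% of all 27025 genes with such a window. The longer form TCACGTGA, which contains the core, was found in *Ctsa*, *Ctsd*, *Gla* and *Mcoln1* (12.5%), against 1.12% of all genes. Base composition was not matched between the sets, and a match describes letters and not a bound site. The stretches below show the 4 genes with the longer form, *Lamp1* with the most copies, and *Glb1* and *Arsa*, whose groups were apart. They are read on the strand of the gene up to the base before the start at most, counted back from the start at -1, and capitals mark the core or, where present, the longer form.
Lamp1 (chr8:13159085-13159160, plus strand): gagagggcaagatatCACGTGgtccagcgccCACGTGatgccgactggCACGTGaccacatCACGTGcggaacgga
Mcoln1 (chr8:3500433-3500494, plus strand): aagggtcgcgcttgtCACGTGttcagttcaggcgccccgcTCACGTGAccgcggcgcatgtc
Gla (chrX:134601179-134601247, minus strand): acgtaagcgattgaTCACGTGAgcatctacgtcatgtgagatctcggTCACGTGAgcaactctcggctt
Ctsd (chr7:142387905-142388077, minus strand): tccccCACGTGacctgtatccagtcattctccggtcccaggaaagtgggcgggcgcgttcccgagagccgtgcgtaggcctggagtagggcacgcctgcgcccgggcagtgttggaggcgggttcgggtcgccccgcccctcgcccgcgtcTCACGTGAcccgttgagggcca
Ctsa (chr2:164833746-164833772, plus strand): caatgagcaaactgTCACGTGAtgcag
Glb1 (chr9:114401015-114401050, plus strand): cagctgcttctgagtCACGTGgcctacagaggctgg
Arsa (chr15:89477425-89477455, minus strand): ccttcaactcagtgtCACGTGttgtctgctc

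*Lamp1* holds 4 cores within its last 61 bases before the start, and the cores of the 2 longer forms of *Gla* begin at -227 and -194. *Ctsa* has a further longer form after the start, with its core at base 6, that is not shown. Among the other 113 lysosome and autophagy genes examined, 88 had a window and 18 of these (20.5%) held the core. The median log2 difference between genotypes was 0.09 over the 13 genes that hold the core and 0.13 over the 19 that do not, as a description without a test. Groups were apart with higher βUCP2Tg values in 3 of the 13 (*Ctsa*, *Glb1* and *Arsa*) and in 5 of the 19, against 6.36% of all tested genes, and among the 19 *Neu1* was apart with lower values, as were 6.74% of all tested genes.

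No gene of the 36 was called between βUCP2Tg and WT islets, although all 36 were well above background on all 8 arrays. Over all 17857 tested genes, with 1 probe each, 0.482% were called. At an unadjusted p under 0.05 by limma, 9 of the 36 were higher in βUCP2Tg islets and 2 lower, against 12.9% and 11.6% of all tested genes; as shares of the 36 these are 25.0% and 5.56%. The groups were apart for 9 genes, 8 with higher βUCP2Tg values (*Ctsa*, *Man2b1*, *Glb1*, *Ctsc*, *Arsb*, *Ulk1*, *Map1lc3b* and *Arsa*) and 1 with lower values (*Neu1*). That is 22.2% and 2.78% of the list, against 6.36% and 6.74% of all tested genes. Over the list the median log2 difference was 0.07, against 0.03 over all tested genes and -0.02 over all tested probes. Of the 36 differences 22 (61.1%) were positive, against 54.0% of all tested genes. Counts of positive differences within a role, given below, are to be read against that share. With quantile or median scaling the median of the list was 0.12 and 0.13, against 0.02 and 0.04 over all probes. The methods' t-test without adjustment gave 12 of the 36 at p under 0.05, against 23.1% of all tested genes, and only *Ctsc* was also over 1.5-fold, against 7.29% of all tested genes. None passed after adjustment. With normexp background correction, *Ctsa*, *Glb1*, *Man2b1*, *Map1lc3b*, *Neu1* and *Ulk1* had limma adjusted p from 0.0401 to 0.0488, each at under 1.5-fold, and again no gene of the 36 was called.

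The count of calls rested on a single WT array. Without WT replicate 1, limma called 5 of the 36 higher in βUCP2Tg islets (*Arsb*, *Ctsc*, *Glb1*, *Manba* and *Naglu*, with log2 differences from 0.65 to 0.90) and none lower. Calls over the whole array grew too, to 6.74% of all tested genes higher and 4.42% lower. Groups were then apart for 11 of the 36 with higher and 4 with lower βUCP2Tg values, against 18.3% and 13.9% of all tested genes. Without βUCP2Tg replicate 4 and WT replicate 1, the same 5 genes were called, with 9.31% of all tested genes called higher and 6.32% lower. Without WT replicates 1 and 3 together, and without any other array singly, none of the 36 was called.

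**Figure D1:**
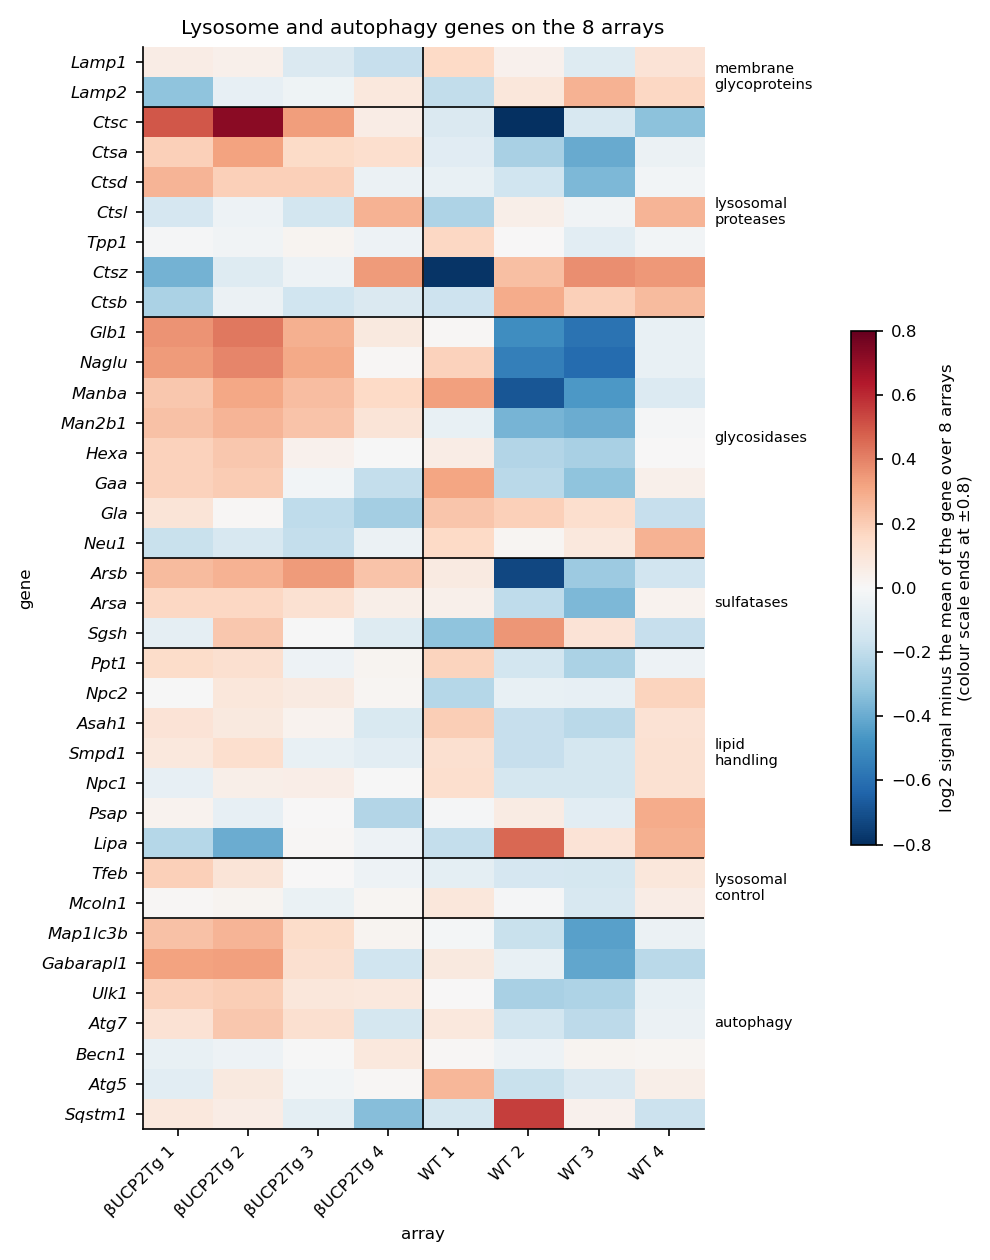
Signal of the 36 genes on the 8 arrays. Rows are genes ordered by role and, within a role, by the difference between genotypes; columns are the 4 βUCP2Tg and 4 WT arrays; colour is the log2 signal minus the mean of that gene over the 8 arrays, with the scale ending at 0.8 in each direction. Within the glycosidases, WT replicates 2 and 3 are low for *Glb1*, *Naglu*, *Manba* and *Man2b1*, while WT replicates 1 and 4 lie nearer to the βUCP2Tg arrays.

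The WT arrays did not behave alike across these genes. WT replicate 3 was the lowest WT array for 18 of the 36 genes and WT replicate 1 the highest for 21. On the other side, βUCP2Tg replicate 4 was the lowest of its group for 24 of the 36 and βUCP2Tg replicate 2 the highest for 19. For all 8 genes that were apart with higher βUCP2Tg values, βUCP2Tg replicate 4 was the array nearest to WT, and the nearest WT array was replicate 1 for 6 genes and replicate 4 for 2. The pooled SD within groups had a median of 0.150 over the 36 genes and ranged from 0.0493 to 0.445, against a median of 0.211 over all tested genes.

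*Lamp1* and *Lamp2* encode the heavily glycosylated proteins that line the lysosomal membrane. *Lamp1* had values of 6.69, 6.67, 6.52 and 6.44 in βUCP2Tg replicates 1 to 4 and of 6.79, 6.66, 6.52 and 6.74 in WT replicates 1 to 4. The groups overlapped across most of their range, with a difference of -0.10 (95% interval -0.33 to 0.13, adjusted p = 0.567). For *Lamp2* the difference at the brightest probe was -0.17 (95% interval -0.48 to 0.14). A dimmer *Lamp2* probe (A_55_P2102126) differed by 0.15. Another (A_55_P2716761) differed by -0.68 (95% interval -1.16 to -0.19), with overlapping groups and not called (limma adjusted p = 0.116).

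Of the 7 lysosomal proteases, *Ctsa* and *Ctsc* were apart with higher βUCP2Tg values, and 3 had a positive and 4 a negative difference. *Ctsa* encodes cathepsin A, a carboxypeptidase that also protects β-galactosidase and sialidase from degradation in the lysosome. Its values were 4.96, 5.10, 4.93 and 4.91 on the βUCP2Tg arrays and 4.68, 4.51, 4.37 and 4.73 on the WT arrays. Every βUCP2Tg array was above every WT array, by a mean difference of 0.40 (standard error 0.11, 1.32-fold), and the adjusted p of 0.0954 was the lowest among the 36 genes. A dimmer *Ctsa* probe differed by -0.15, and the average of both probes differed by 0.13 with overlapping groups. *Ctsc* encodes the dipeptidyl peptidase that activates serine proteases of immune cells. Its signal was dim, at -1.39, -1.16, -1.55 and -1.83 on the βUCP2Tg arrays and -2.002, -2.93, -2.02 and -2.21 on the WT arrays. This was the largest difference on the list at 0.81 (standard error 0.23, 1.75-fold, adjusted p = 0.104), and WT replicate 2 was the lowest WT array. With normexp background correction the difference was 0.49 and the groups overlapped.

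*Ctsd*, the main aspartic protease of lysosomes, stood at 4.20, 4.12, 4.12 and 3.89 against 3.87, 3.77, 3.57 and 3.91. Only βUCP2Tg replicate 4 lay within the WT range, and the difference was 0.30 (standard error 0.11, adjusted p = 0.154). *Ctsb*, an abundant cysteine protease, ran the other way, with 5.76, 5.97, 5.85 and 5.90 in βUCP2Tg islets and 5.85, 6.31, 6.203 and 6.27 in WT islets. WT replicate 1 overlapped the βUCP2Tg arrays, and the difference of -0.29 (standard error 0.12) had an adjusted p of 0.188. The remaining proteases were *Ctsl* at -0.02, *Tpp1* at -0.03 and *Ctsz* at -0.09, each with an interval that spans 0.

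Among the 8 glycosidases, which trim sugars from glycoproteins, glycolipids and glycans, 6 differences were positive and 2 negative. *Glb1* encodes lysosomal β-galactosidase. It had values of 2.55, 2.61, 2.47 and 2.27 in βUCP2Tg islets and 2.20, 1.69, 1.60 and 2.13 in WT islets. The groups were apart, but the lowest βUCP2Tg array was only just above WT replicate 1, and the difference was 0.57 (standard error 0.16, 1.49-fold, adjusted p = 0.102). *Man2b1*, the lysosomal α-mannosidase, stood at 2.17, 2.21, 2.16 and 2.04 against 1.88, 1.56, 1.54 and 1.92. Its 4 βUCP2Tg values were tight and above all WT values, with a difference of 0.42 (standard error 0.12, adjusted p = 0.1004).

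*Naglu* removes N-acetylglucosamine from heparan sulfate, and its promoter also holds the core. Its values were 3.15, 3.20, 3.11 and 2.82 on the βUCP2Tg arrays and 2.99, 2.26, 2.19 and 2.75 on the WT arrays. WT replicate 1 lay among the βUCP2Tg values, and the difference was 0.52 (standard error 0.19, adjusted p = 0.152). *Manba*, the lysosomal β-mannosidase, had 0.58, 0.67, 0.62 and 0.52 against 0.69, -0.32, -0.09 and 0.26. Here WT replicate 1 was the highest of all 8 arrays, and the WT SD of 0.44 (n = 4) was well above the βUCP2Tg SD of 0.06 (n = 4); the difference was 0.46 (standard error 0.20, adjusted p = 0.200).

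*Neu1*, the lysosomal sialidase, was the one gene of the list that was apart with lower βUCP2Tg values. Its values were 3.82, 3.87, 3.81 and 3.96 in βUCP2Tg islets and 4.16, 4.01, 4.08 and 4.28 in WT islets. The difference was -0.27 (standard error 0.09, adjusted p = 0.132), and with quantile or median scaling the groups overlapped, at -0.20 and -0.21. Cathepsin A, β-galactosidase and sialidase are known to form a complex in lysosomes. In these arrays *Ctsa* and *Glb1* were higher and *Neu1* lower on every βUCP2Tg array than on any WT array at the brightest probe of each, none of them called. These genes were picked out after they were seen to be apart, and with its probes averaged the groups of *Ctsa* overlapped. A link to the complex was not tested. *Gla*, which encodes α-galactosidase A and whose promoter holds the longer form at 2 sites, had 7.05, 6.96, 6.74 and 6.67 against 7.17, 7.13, 7.08 and 6.76. The ranges overlapped and the difference was -0.18 (95% interval -0.48 to 0.12, adjusted p = 0.419). *Hexa* had a difference of 0.22 and *Gaa*, the lysosomal enzyme that digests glycogen, of 0.09 at its brightest probe.

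**Figure D2:**
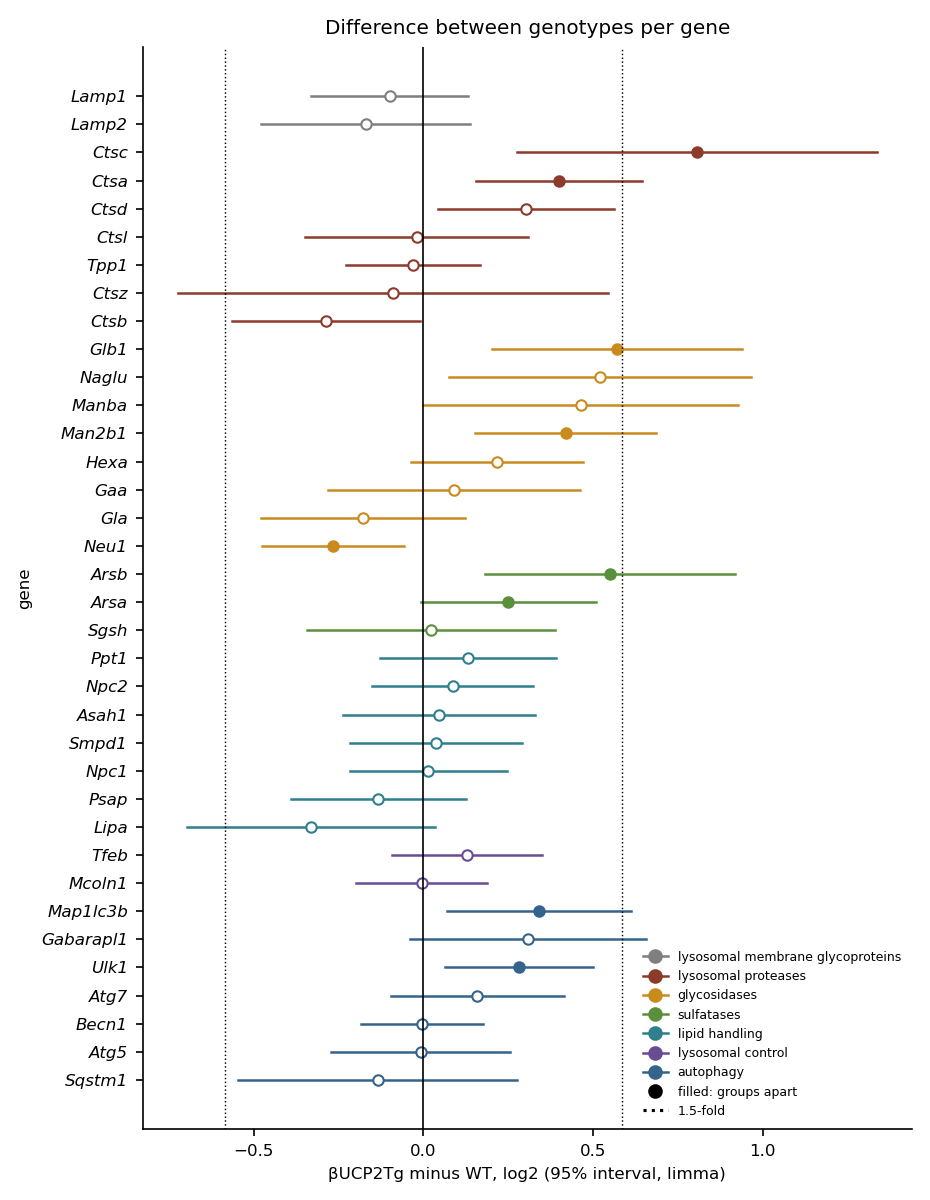
Difference between genotypes for each of the 36 genes. The x axis is βUCP2Tg minus WT on the log2 scale, points are limma estimates from 4 arrays against 4, bars are 95% intervals, colours are roles, filled points are genes whose groups are apart, and dotted lines mark 1.5-fold. *Ctsc* at 0.81 is the only point beyond a dotted line, and the lipid handling genes lie between -0.33 and 0.13.

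All 3 sulfatases had a positive difference, and *Arsb* and *Arsa* were apart. *Arsb*, which removes sulfate from dermatan and chondroitin sulfate, had -2.41, -2.38, -2.32 and -2.44 in βUCP2Tg islets and -2.59, -3.39, -2.96 and -2.81 in WT islets. The βUCP2Tg SD was 0.05 against 0.34 in WT (n = 4 each), the groups were apart, and the difference was 0.55 (standard error 0.16, 1.46-fold, adjusted p = 0.107), or 0.21 with normexp background correction. *Arsa*, which acts on sulfatide, had 2.69, 2.69, 2.65 and 2.58 against 2.57, 2.32, 2.17 and 2.56. Its groups were apart by a narrow gap, and the difference was 0.25 (standard error 0.11, adjusted p = 0.207). *Sgsh*, which acts on heparan sulfate, had 5.84, 6.12, 5.91 and 5.80 against 5.58, 6.26, 6.01 and 5.73. All βUCP2Tg values lay inside the WT range, with a difference of 0.02 (95% interval -0.34 to 0.39).

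At its brightest probe, no lipid handling gene was apart or below an unadjusted p of 0.05. *Lipa*, the lysosomal acid lipase that frees cholesterol and fatty acids, had the largest difference of the 7, with -1.17, -1.35, -0.94 and -0.99 in βUCP2Tg islets and -1.14, -0.49, -0.84 and -0.66 in WT islets. WT replicate 1 lay within the βUCP2Tg range, and the difference was -0.33 (standard error 0.16, adjusted p = 0.232). *Psap*, the precursor of the saposins that help sphingolipid hydrolases, had 4.78, 4.68, 4.75 and 4.52 against 4.74, 4.81, 4.67 and 5.05. The difference of -0.13 (95% interval -0.39 to 0.12) was within the spread of both groups. The cholesterol exporters *Npc1* and *Npc2*, acid ceramidase *Asah1*, acid sphingomyelinase *Smpd1* and the thioesterase *Ppt1* had differences between 0.01 and 0.13. *Npc1* also had a pair of dim probes at -0.59 and -0.68, the latter (A_55_P2713370) apart with lower βUCP2Tg values and not called (adjusted p = 0.0517).

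*Tfeb* and *Mcoln1*, a cation channel of the lysosomal membrane, stand for control of the organelle. *Mcoln1* had 2.84, 2.85, 2.78 and 2.85 in βUCP2Tg islets and 2.92, 2.82, 2.70 and 2.89 in WT islets. Its difference of -0.01 had a narrow interval of -0.20 to 0.19, inside the 1.5-fold limits. The brightest of 4 tested *Tfeb* probes differed by 0.13 (95% interval -0.09 to 0.35). The others differed by -0.17, 0.27 and 0.50, the last (A_55_P1997898) apart with higher βUCP2Tg values and not called.

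Of the 7 autophagy genes, *Ulk1* and *Map1lc3b* were apart with higher βUCP2Tg values. *Ulk1* encodes the kinase that starts autophagy. Its values were 3.70, 3.71, 3.61 and 3.60 in βUCP2Tg islets and 3.52, 3.26, 3.27 and 3.46 in WT islets, a difference of 0.28 (standard error 0.10, 1.22-fold, adjusted p = 0.131). *Map1lc3b* encodes the ubiquitin-like protein that is attached to the growing membrane, and had 4.11, 4.15, 4.03 and 3.90 against 3.86, 3.70, 3.44 and 3.83. The gap between βUCP2Tg replicate 4 and WT replicate 1 was small, and the difference was 0.34 (standard error 0.12, 1.27-fold, adjusted p = 0.136). Of its other probes one differed by 0.41 and one by -0.37, and with the probes averaged the difference was 0.13 and the groups overlapped. *Gabarapl1*, of the same protein family, differed by 0.31 with overlapping groups (adjusted p = 0.241).

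*Sqstm1* encodes the receptor that carries ubiquitinated cargo to the autophagosome and is itself degraded there. Its values were 6.87, 6.84, 6.70 and 6.44 in βUCP2Tg islets and 6.64, 7.33, 6.81 and 6.61 in WT islets. WT replicate 2 was the highest array and βUCP2Tg replicate 4 the lowest, with a difference of -0.13 (95% interval -0.55 to 0.28). *Atg5* (-0.01), *Becn1* (-0.00) and *Atg7* (0.16), which act in nucleation and elongation of the membrane, had intervals that span 0 at the brightest probe. A dimmer *Atg7* probe (A_51_P474187) differed by 0.29 (95% interval 0.03 to 0.56). Its groups were apart with higher βUCP2Tg values and it was not called (limma adjusted p = 0.169). Of all 36 genes, 25 had a 95% interval wholly inside the 1.5-fold limits in both directions, before any adjustment for the number of genes.

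**Figure D3:**
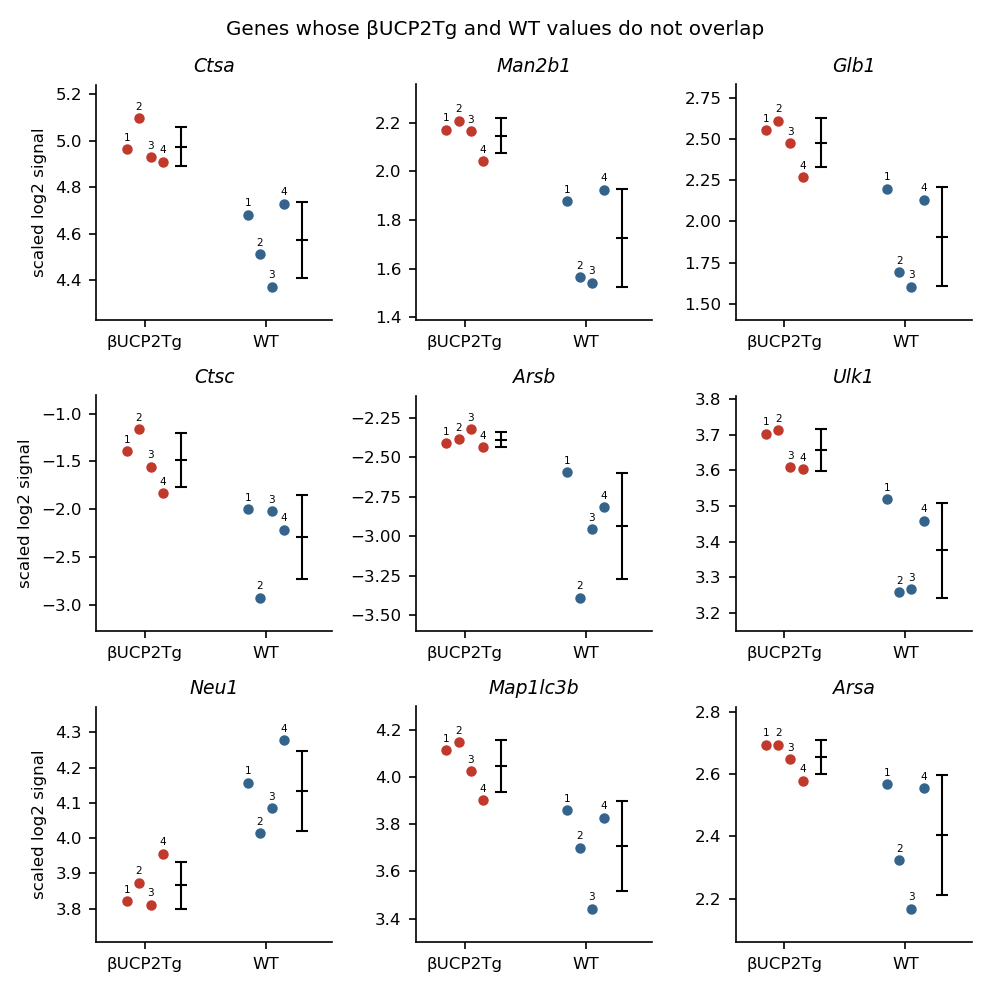
The 9 genes whose βUCP2Tg and WT values do not overlap. Points are scaled log2 signals of single arrays labelled with their replicate number, and black marks are mean ± SD (n = 4 per group); the y axes differ between panels. In the 8 panels with higher βUCP2Tg values, βUCP2Tg replicate 4 is the lowest of its group, and in *Neu1* the order of the groups is turned.

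The array holds 75 probes for the 36 genes, of which 69 were tested, and 21 genes had more than 1 tested probe. Of the 33 other tested probes, 25 had a difference of the same sign as the brightest probe of their gene, and for 14 of the 21 genes all did. *Glb1* had 5 tested probes with differences between 0.30 and 0.60, although 2 of these share a run of 16 of their 60 bases and are not separate measurements. *Ctsc* had a second probe at 0.47, and *Gabarapl1* one at 0.44.

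Of the 69 tested probes 2 were called, against 0.41% of all tested probes, and neither is the brightest of its gene. A dimmer *Arsb* probe (A_66_P103456) had -3.58, -3.49, -3.46 and -3.70 in βUCP2Tg islets and -4.18, -4.76, -4.56 and -4.29 in WT islets. It was higher in βUCP2Tg islets by 0.89 (standard error 0.14, 1.86-fold, adjusted p = 0.0482), while a further *Arsb* probe (A_66_P130416) differed by 0.04. A dim *Gaa* probe (A_55_P2024429) had -4.20, -4.00, -4.10 and -3.45 against -2.75, -2.59, -2.68 and -2.95. In βUCP2Tg islets it fell by 1.199 on the log2 scale (standard error 0.17, 2.30-fold lower, adjusted p = 0.0456), whereas the 2 *Gaa* probes that the array assigns to the RefSeq transcript differed by 0.09 and 0.05. The called *Gaa* probe is assigned to an Ensembl transcript of its own. Probes also disagreed in sign for *Ctsa*, *Map1lc3b*, *Tfeb*, *Lamp2*, *Npc1* and *Smpd1*, in some cases with an opposite value near 0 within its error, as for *Ctsa* at -0.15. Differences between transcripts were not tested. When the probes of each gene were averaged, the difference was 0.25 for *Manba*. *Ulk1* was still apart, at 0.15, and *Gaa* was apart with lower values in βUCP2Tg islets.

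**Figure D4:**
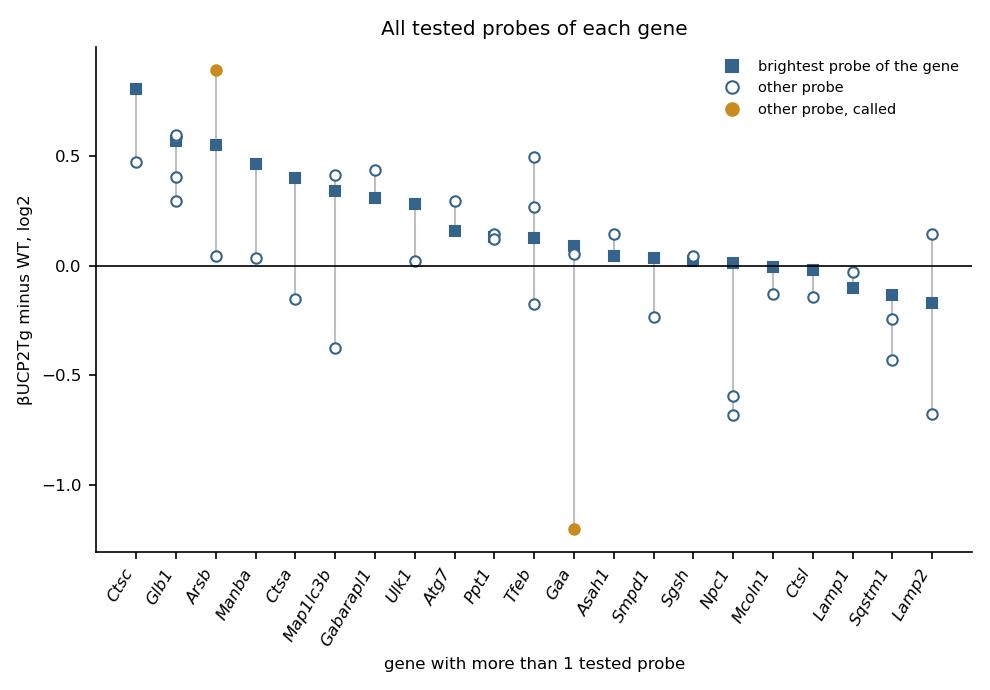
All tested probes of the 21 genes with more than 1. The y axis is βUCP2Tg minus WT on the log2 scale; squares are the brightest probe of each gene, circles the others, and orange marks the 2 called probes. The called *Gaa* probe at -1.20 lies far from the other *Gaa* probes, while the *Glb1* probes all lie above 0.

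A wider set of 113 genes of the same organelles gave no call either, and its median difference was 0.01, with 9 genes higher and 14 lower at an unadjusted p under 0.05. Over all tested genes 12.9% were higher and 11.6% lower at that p, and the counts of the 5 lists within the set, given next, are to be read against these shares. The 18 subunits and accessory proteins of the vacuolar proton pump, which acidifies the lysosome, had a median of -0.09, with 0 higher and 2 lower. The gene with the smallest p was *Atp6ap2*, an accessory subunit, at 3.94, 3.98, 3.98 and 3.93 in βUCP2Tg islets and 4.17, 4.26, 4.24 and 4.35 in WT islets. The groups were apart, with a difference of -0.30 (standard error 0.08, adjusted p = 0.0969).

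The 12 genes that deliver hydrolases to the lysosome had a median of -0.08, with 2 lower at that p. *Igf2r*, the large mannose-6-phosphate receptor that carries new hydrolases there, had 2.92, 2.95, 2.99 and 2.55 against 3.26, 3.57, 3.60 and 3.46. This difference of -0.62 (standard error 0.13, adjusted p = 0.0725) had the lowest p of the wider set. The 18 genes of mTORC1 and TFEB control had 3 lower and none higher. *Flcn*, folliculin, which acts on the Rag GTPases upstream of TFEB, had 3.09, 3.24, 3.099 and 3.22 against 3.76, 3.57, 3.47 and 3.54, a difference of -0.42 (standard error 0.10, adjusted p = 0.0818).

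The 29 other lysosomal proteins had a median of 0.11, with 5 higher and 3 lower. *Ctsf*, a further cysteine protease, had 1.41, 1.30, 1.14 and 1.16 against 0.85, 0.80, 0.73 and 1.04, apart by a difference of 0.40 (standard error 0.11, adjusted p = 0.0954). Of the 36 other autophagy genes 4 were higher and 4 lower. *Wipi1*, which binds the lipid that marks the forming autophagosome, had 2.95, 3.08, 3.11 and 3.68 against 3.62, 4.15, 4.17 and 4.31. Only βUCP2Tg replicate 4 reached the WT range, and the difference was -0.86 (standard error 0.20, adjusted p = 0.0845).

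Marker lists of other cells and of hypoxia differed between arrays too. In these bulk samples, fewer cells of a type and less RNA per cell cannot be told apart. Macrophages are rich in lysosomes. Of 12 macrophage marker genes, 11 were tested and 1, *Cd14*, was called lower. At an unadjusted p under 0.05 4 were lower and 1, *C1qa*, was higher (a difference of 0.66 with the groups apart), while *C1qb* (-0.09), *C1qc* (-0.09) and *Lyz2* (0.09) had intervals that span 0. Their summed linear signal was 16.4 to 20.6 in βUCP2Tg islets and 21.0 to 27.4 in WT islets. Endothelial genes summed to 15.9 to 19.5 against 9.62 to 15.1, with none of 6 called. At an unadjusted p under 0.05 by limma, 3 of the 6 were higher and none lower, against 12.9% and 11.6% of all tested genes. *Cdh5* (-0.12) and *Pecam1* (-0.03) had negative differences with intervals that span 0. For the 14 hypoxia response genes, 10 were lower in βUCP2Tg islets at an unadjusted p under 0.05, against 11.6% of all tested genes, and none called, and the sums were 117 to 191 against 169 to 270. The 6 markers of other islet endocrine cells summed to 610 to 789 against 585 to 704. The 10 β-cell genes summed to 1191 to 1585 against 1516 to 1575. All tested genes of these lists were well above background on all 8 arrays. Their part in the differences of the lysosome and autophagy genes was not tested.

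**Figure D5:**
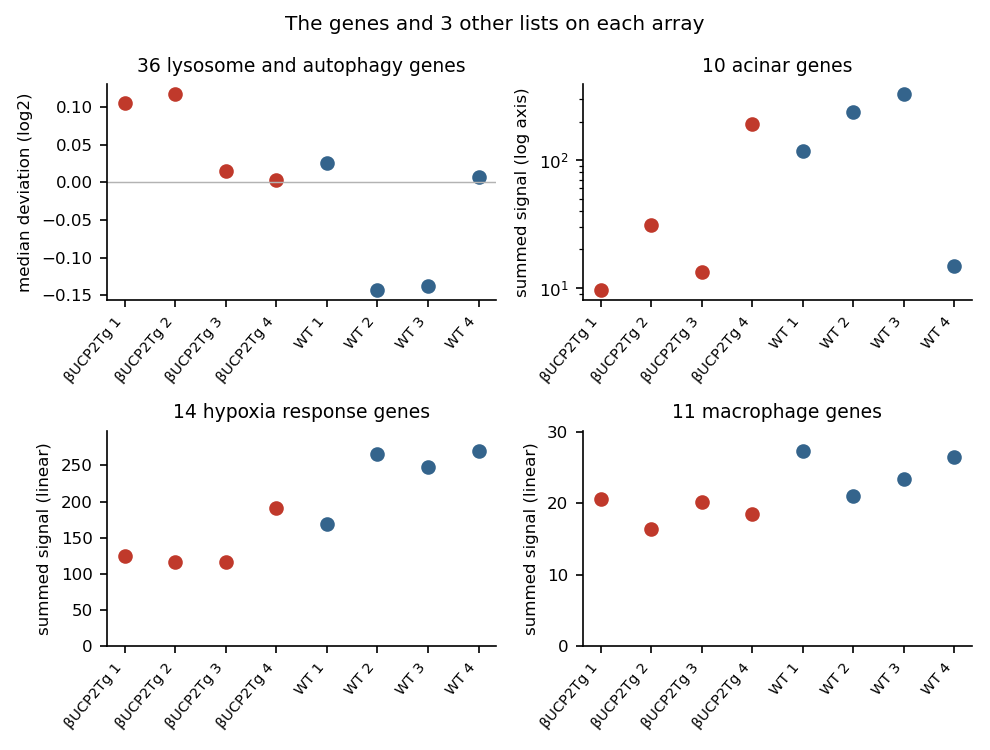
The 36 genes and 3 other lists on each array. The first panel shows the median over the 36 genes of the log2 signal minus the gene's own mean; the other panels show the summed linear scaled signal of the acinar (log axis), hypoxia response and macrophage genes; red points are βUCP2Tg and blue points WT arrays. The 36 genes are lowest in WT replicates 2 and 3, at -0.14 each, the 2 arrays with the highest acinar sums, and βUCP2Tg replicate 4 (191) lies above WT replicate 1 (169) in the hypoxia panel.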

How the data were processed

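The authors scanned the arrays with Agilent Feature Extraction; the submitters' processing notes name version 9.1, while the file headers name a later one. The scanner files deposited by the authors hold spot intensity (linear, background already subtracted, arrays not scaled to each other), together with other columns of flags for outlier, saturated and well above background spots. The authors also deposited GeneSpring values on the log2 scale, shifted to the 75th percentile of each array. The same deposited table holds the authors' p-values, ratios (fold changes) and log2 fold changes between the groups, which were not used. The genome build in the file headers differs from that of the promoter table, so sequences were matched by symbol.

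Without control spots and spots marked as outliers, log2 intensities were lowered by the 75th percentile of their array and averaged per probe. A probe was tested when a share of 0.5 or more of its spots was well above background on at least 4 of 8 arrays. The genotypes were then fitted in limma 3.58.1 (R 4.3.3), whose moderated p-values were adjusted by Benjamini-Hochberg over all tested probes. The fit was tested on simulated data. Software for input and plots was data.table (version 1.17.8), Python (3.11.15) and matplotlib (3.10.9). The number of arrays limits the precision.

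The genes and lists were chosen with earlier results of these data known. By the naming rule, full values are given for called genes, then for the genes with the smallest limma p until 14 were reached, for the brightest gene of each role, and for the gene with the smallest p in each wider list. Differences of the other genes are given in brief. Probes other than the brightest were named after their values were seen. Alternatives changed the filter, scaling, background correction, source of values, outlier spots, spread, test, fold limit, probe choice, replicate block and arrays used. Leaving out WT replicates 1 and 3 together, or βUCP2Tg replicate 4 with WT replicate 1, was chosen after seeing the data.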

Additional observations from a re-analysis of the deposited data

Results flagged for a closer look

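Of 72 groups of 4 arrays (36 genes in each genotype), 1 held an array far from the other 3, while chance alone gives about 1 in 20. *Ctsz*, which encodes the carboxypeptidase cathepsin Z, had a signal of 3.08 in WT replicate 1, against 4.11 to 4.24 in the other WT arrays and 3.49 to 4.21 in the βUCP2Tg arrays. WT replicate 1 is also the array without which 5 genes were called, and its macrophage sum was the highest of the 8 arrays, at 27.4.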

How the results depend on the processing

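The count of 0 called genes among the 36 held under every alternative that kept all 8 arrays. It ranged from 0 to 5 when 1 array was left out, with 5 only without WT replicate 1, and was 5 without βUCP2Tg replicate 4 and WT replicate 1. The count of genes whose groups were apart was between 6 (median scaling) and 10 over the alternatives with all arrays, 9 to 15 when 1 array was left out, 16 without WT replicates 1 and 3, and 21 without βUCP2Tg replicate 4 and WT replicate 1. Fewer arrays made separation more common for all genes: 14.2% to 32.3% of all tested genes were apart when 1 array was left out, and 37.2% and 46.4% in the last 2 settings, where the share of the list was 44.4% and 58.3%. *Neu1* was no longer apart under quantile or median scaling, nor *Arsa* and *Map1lc3b* under median scaling, *Arsa* and *Ctsc* under normexp, or *Ctsa* and *Map1lc3b* with probes averaged. The median difference was 0.12 under quantile normalization, 0.13 under median scaling, 0.10 under normexp and 0.03 to 0.11 when 1 array was left out. Under normexp *Ctsc* differed by 0.49 and *Arsb* by 0.21. Of 460 values of the 20 genes given in full, 435 kept their direction and their side of the threshold. Many of these could not change direction. The filters, the intensity trend, the t-test and the replicate block leave the difference itself as it was and can move only the side of the threshold. The difference turned sign for *Lamp1* under quantile normalization (0.011), and for *Mcoln1* under quantile normalization (0.038), median scaling (0.055), the percentile over probes measured on all arrays (0.010), the deposited values (0.011) and without βUCP2Tg replicate 4 and WT replicate 1 (0.02). It did so too for *Sgsh* without WT replicates 1 and 3 (-0.076) and without βUCP2Tg replicate 4 and WT replicate 1 (-0.05). When 1 array was left out, *Sgsh* ranged from -0.083 to 0.14, *Mcoln1* from -0.050 to 0.023 and *Sqstm1* from -0.21 to 0.026. The cause of these turns was not tested. Calls over the whole array numbered 145, but 21 without a filter, and 38 and 237 with looser and stricter filters. They numbered 82 with the other percentile, 816 with normexp, 379 with an intensity trend, 26 by Student's t-test with adjustment and 87 at a fold over 2. Between 11 and 3728 were called when 1 array was left out, 60 without WT replicates 1 and 3, and 5634 without βUCP2Tg replicate 4 and WT replicate 1.

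Replicate numbers are shared by the groups, but no label ties same-numbered samples together. Their deviations correlated at 0.48, -0.07, -0.02 and -0.30 over 31692 probes. Differently numbered pairs ranged from -0.55 (βUCP2Tg replicate 1 with WT replicate 3) to 0.52 (βUCP2Tg replicate 4 with WT replicate 3). The source of these correlations was not tested. With the replicate number as a block, 0 of the 36 genes were called and 14 probes over the whole array. With 4 arrays a side, the unadjusted 95% intervals had a median half-width of 0.27 over the list. This is no limit of detection for calls, which need an adjusted p and a fold over 1.5, and differences of 0.40 (*Ctsa*) and 0.57 (*Glb1*) were not called.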
